A study of Canis lupus familiaris with 18 samples.

Results

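MDCKI cells that carry bPAC were compared with the parental MDCKI line under the same high dose of light. The members were the libraries labelled by line and by the high dose, which are 3 of bPAC cells and 2 of parental cells among the 18 of the study. MDCKI is an epithelial line from dog kidney, and bPAC is an adenylyl cyclase from a bacterium, which forms cyclic AMP under blue light. All cells of both lines were plated in medium with 0.5% serum and no phenol red and, 16 h later, were given a high or a low dose of light or no light for 2 h. The labels give the doses in words only, and do not say whether the bPAC line is 1 clone or how bPAC is expressed. The line difference at high light is read beside that in the dark, from 3 bPAC and 3 parental libraries, and beside that at low light, from 4 bPAC and 3 parental libraries.

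Cyclic AMP binds the regulatory subunits of protein kinase A, which frees the catalytic subunits. These phosphorylate many proteins, among them the transcription factor CREB, which raises transcription of genes with a cyclic AMP response element. In kidney epithelium the pathway is best known for carrying the signal of vasopressin to water and ion transport. Strong light alone can also act on cells, and a line made with a transgene can differ from its parent before any light is given. The comparison at high light sets cells of both lines that received the same light against each other, and the comparison in the dark shows what the lines differ in without light.

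RNA was measured by sequencing from near the 3' end of transcripts, so a read count does not scale with gene length. Levels are given as CPM, which are read counts scaled to a common library size, here with TMM factors. The bPAC high light libraries held 7153601, 4507783 and 2638511 gene reads, and the parental high light libraries 3988616 and 4004576. Of the 32220 gene IDs, 8530 passed a filter on low counts and were tested. The deposited tables name genes by Ensembl dog IDs, and 0 of these matched the symbols in the reference table, so genes are described by ID and by how they behaved, and the epithelial identity of the cells was not checked here. The labels do not say whether replicates are separate cultures; if they are not, the p-values measure technical spread between libraries.

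The libraries of the 2 lines differed in composition at high light. The 10 most abundant genes of a library took 17.2% to 21.2% of its gene reads in bPAC high light, against 13.5% and 14.3% in parental high light. In this share the lines did not overlap at any light level. Dark libraries had 14.2% to 15.2% in bPAC and 13.3% to 13.9% in parental cells, and low light ones 16.0% to 18.5% and 13.3% to 13.75%. Reads aligned to more than 1 place, which are counted for no gene, made up 41.7% to 44.4% of all reads in bPAC high light. They made up 38.9% in parental high light 1 and 44.2% in parental high light 2, so parental high light 1 lay below every bPAC high light library and parental high light 2 among them. Reads outside annotated genes were at 25.1% to 26.4% in bPAC high light and at 28.95% and 26.4% in parental high light. The part of these shares in the results was not tested. Over the tested genes, the median absolute difference in log2 CPM was 0.29 to 0.45 between bPAC high light libraries and 0.37 between the parental ones, and 0.45 to 0.64 between a bPAC and a parental library.

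At high light 1041 genes differed between the lines, which is 12.2% of the 8530 tested (edgeR adjusted p under 0.05). Of these, 561 were higher in bPAC cells (6.58% of the tested genes) and 480 were lower (5.63%). In 1033 of the 1041 the bPAC and parental libraries did not overlap, as in 43.9% of all tested genes. The median log2 fold change, bPAC over parental, was 1.20 for the genes called higher and -1.24 for those called lower, against -0.02 over all tested genes. A difference of at least 2-fold was fitted for 374 of the genes called higher and 331 of those called lower, and of at least 4-fold for 125 and 76. Among the called genes, 6 had no read in parental high light and 1 had none in bPAC high light. With these set to the bound that 3 reads over the group allow, the medians were the same and the 4-fold counts were 124 and 75.

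The differences reached into the most abundant transcripts. Of the 10 genes with the highest mean level over the 5 high light libraries, 4 were called higher in bPAC cells and none lower. Their log2 fold changes lay between 0.28 and 2.14. Among the 100 most abundant, 21 were called higher and 2 lower, with a median log2 fold change of 0.47. Of all tested genes, 6.58% were called higher and 5.63% lower, with a median of -0.02. Both rankings used the compared libraries, 3 of bPAC and 2 of parental cells. Genes raised in bPAC cells thus entered more easily, and the lean to higher calls partly follows from the ranking. By mean level over all libraries, 16.3% of the upper tercile of the tested genes were called (9.74% higher, 6.54% lower), 13.4% of the middle tercile (6.05% higher, 7.35% lower) and 6.93% of the lower tercile (3.94% higher, 2.99% lower). The median absolute log2 fold change of called genes was 2.17 in the lower tercile and 0.96 in the upper one.

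Each of the high light groups is small, and the count of calls leans on single libraries. It was 295 without parental high light 2, with 138 higher and 157 lower, and 685 without parental high light 1. The count was 572 without bPAC high light 1, 539 without bPAC high light 2 and 1194 without bPAC high light 3. Of the 1041 genes, 273 were called without parental high light 2 and 590 without parental high light 1. All 1041 kept their sign without parental high light 2, and 1040 did so without parental high light 1. That is no sign of stability, because the libraries of the lines did not overlap in 1033 of these genes. Leaving out 1 library could then not reverse the sign. Leaving out one of these leaves a single parental library, whose spread is taken to be like that of the other groups.

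**Figure D1:**
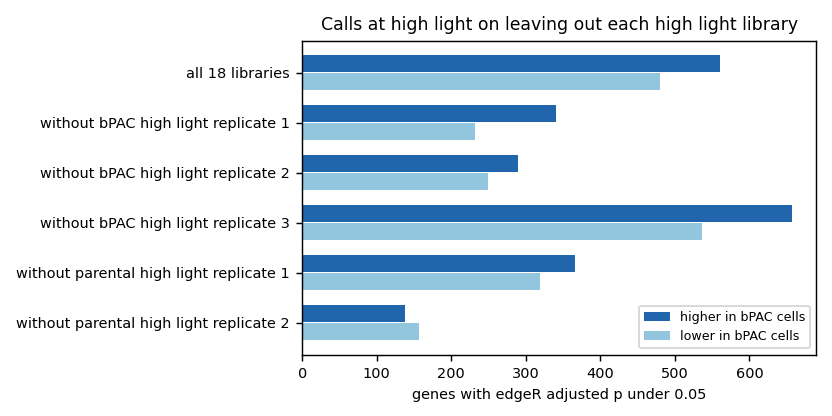
Bars give the number of genes with an edgeR adjusted p under 0.05 between bPAC and parental cells at high light, higher (dark) and lower (pale) in bPAC cells, for all 18 libraries and on leaving out each high light library. The shortest bars, 138 and 157 genes, belong to the fit without parental high light replicate 2.

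Called genes without overlap of the libraries and with at least 5 CPM on average in the higher group were ranked by fold change at high light. Within these limits the largest differences were those of ENSCAFG00000013358 and ENSCAFG00000028627, higher in bPAC cells, and of ENSCAFG00000001254 and ENSCAFG00000012619, lower in them. ENSCAFG00000013358 had 5.23, 7.07 and 4.96 CPM in the bPAC high light libraries and no read in either parental one. Set against the level that 3 reads over both parental libraries would give, 0.364 CPM, it was at least 15.8-fold higher in bPAC cells (edgeR adjusted p = 0.00177). In the dark it was near the floor in both lines, at 0.359 ± 0.157 CPM in bPAC and 0.519 ± 0.258 CPM in parental cells (SD, n = 3 each). At low light bPAC cells held 9 reads over 4 libraries and parental cells 1 read over 3. The bPAC high light libraries were above all the others. That was largely set by the choice, because the gene passed the filter on low counts only through these libraries and was named for its level there. Its line difference at high light was not called different from that in the dark (interaction, edgeR adjusted p = 0.0830).

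ENSCAFG00000028627 had 10.5, 8.20 and 7.03 CPM in bPAC high light, or 110 reads, against 1 read in both parental high light libraries together. The ratio of the pooled reads, scaled by library size, was 75.1 with an exact 95% interval of 13.2 to 2994 that covers counting error only (edgeR adjusted p = 0.000485). This gene was also called higher in bPAC cells in the dark, with 1.79 ± 0.999 CPM there and 0.212 ± 0.285 CPM in parental cells (SD, n = 3 per line), from 19 and 3 reads (edgeR adjusted p = 0.0303). It was therefore called between the lines at high light and in the dark, but not at low light (log2 fold change 2.42, SE 0.82, edgeR adjusted p = 0.0824). Its bPAC level was higher at high light than in the dark, by 2.32 on the log2 scale (SE 0.54, edgeR adjusted p = 0.00537). In that comparison 12.7% of all tested genes were called higher. The gene was named for its line difference in the same bPAC high light libraries, which favoured this result. Its line difference at high light was not called different from that in the dark (interaction 2.73, SE 1.70, edgeR adjusted p = 0.480).

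ENSCAFG00000001254 had 3.43, 1.41 and 2.89 CPM in bPAC high light and 51.9 and 130.2 CPM in parental high light, a log2 fold change of -5.09 (SE 0.81, edgeR adjusted p = 0.00118). In the dark the lines overlapped, at 32.8, 41.1 and 65.6 CPM in bPAC cells and 31.4, 58.7 and 35.3 CPM in parental cells. At low light it was already lower in bPAC cells, at 0.878 to 8.24 CPM against 18.2 to 72.9 CPM (log2 fold change -3.53, SE 0.66, edgeR adjusted p = 0.00445). A line difference was thus found at both doses of light and not in the dark, where the adjusted p was 0.911 (edgeR; log2 fold change 0.16, SE 0.61).

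ENSCAFG00000012619 was lower in bPAC cells with and without light. It had 0, 0.283 and 1.24 CPM in bPAC high light and 9.87 and 7.22 CPM in parental high light (log2 fold change -4.51, SE 1.10, edgeR adjusted p = 0.0139). Without light it had 0.851, 2.72 and 1.57 CPM in bPAC cells and 37.0, 22.8 and 4.29 CPM in parental cells (log2 fold change -3.72, SE 0.78, edgeR adjusted p = 0.00937). The call at high light was lost without either parental high light library, without bPAC high light 1 and without bPAC high light 2 (edgeR adjusted p up to 0.0766), and with limma-voom (adjusted p = 0.0616).

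Without light, 557 genes were called between bPAC and parental cells, 6.53% of those tested, with 308 higher and 249 lower in bPAC cells. At low light 597 did (7%), with 356 higher and 241 lower. The 3 line comparisons compare different libraries and share only the estimate of the spread. Of the 561 genes higher at high light, 182 were also called higher in the dark. They made up 32.4% of the high light list, where 3.61% of all tested genes were called higher in the dark. They made up 59.1% of the dark list, where 6.58% of all tested genes were called higher at high light. Of the 480 lower genes, 75 were also called lower in the dark. These were 15.6% of the high light list, against 2.92% of all tested genes called lower in the dark. They were 30.1% of the dark list, against 5.63% of all tested genes called lower at high light. Without parental dark 2, parental dark 3 or bPAC dark 2, the count in the dark was 238, 224 and 235. The low light count was 352, 298 and 338 without parental low light 1, 2 and 3.

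Genes called at high light leaned the same way at the other light levels whether or not they were called there. The dark median of the 561 higher genes was 0.52 (log2 fold change) and 89.8% were above 0, against 49.1% of all tested genes. At low light their median was 0.69, with 95.5% above 0, against 47.7% of all. The 480 lower genes had a dark median of -0.34 with 78.1% below 0, against 50.9% of all, and a low light median of -0.51 with 91.5% below 0, against 52.3% of all. At low light 240 of the 561 were called higher (4.17% of all tested genes were) and 104 of the 480 lower (2.83% of all), and none the opposite way.

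**Figure D2:**
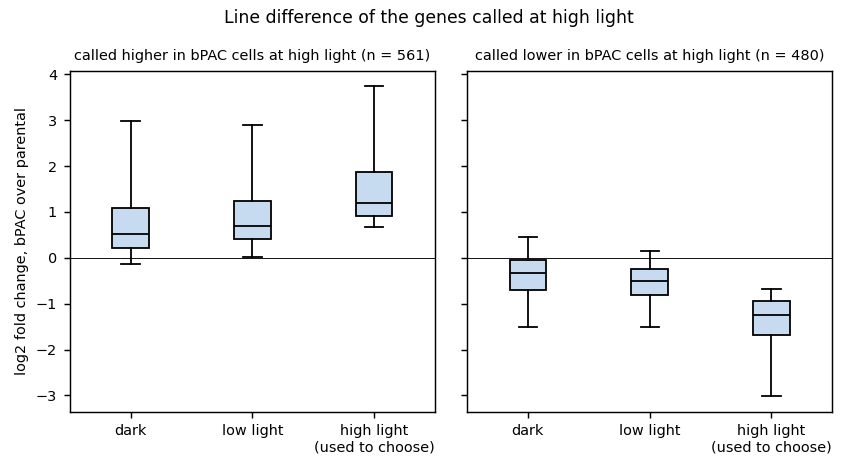
Boxes show the log2 fold change of bPAC over parental cells for the 561 genes called higher (left) and the 480 called lower (right) at high light, in the dark, at low light and at high light, with medians, quartiles and whiskers from the 5th to the 95th percentile. The high light boxes chose the genes; in the dark and low light comparisons, whose libraries entered the choice only through the shared estimate of the spread, the medians were 0.52 and 0.69 for the higher and -0.34 and -0.51 for the lower genes.

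Over all 8530 genes the fold changes between the lines at high light correlated with those at low light at r = 0.638 (Spearman's rho 0.604) and with those in the dark at r = 0.415 (rho 0.332), while the dark and low light ones correlated at r = 0.574 (rho 0.447). These are descriptions across genes, which are not independent replicates. A set of 161 genes was called higher in bPAC cells at all 3 light levels and a set of 47 was called lower at all 3. The 161 genes had median log2 fold changes of 1.44 in the dark, 1.43 at low light and 1.79 at high light, and the 47 genes of -1.22, -1.22 and -1.27. Each of these genes had to be called in all 3 comparisons. Medians far from 0 at every light level were thus set by the choice, and do not show a constant line difference. Another 300 genes higher and 348 genes lower at high light were called in that direction at neither of the other light levels. Their medians in the dark were 0.27 and -0.22, and a call that is missing there does not show that the line difference changed with light.

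**Figure D3:**
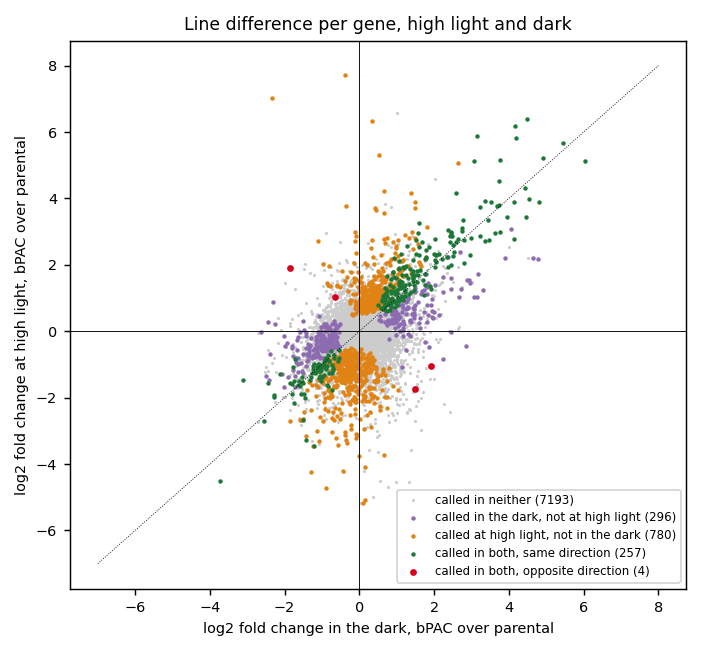
Each point is a tested gene, placed by its log2 fold change of bPAC over parental cells in the dark (horizontal) and at high light (vertical), and coloured by where it was called; the dotted line marks equal differences. The 257 genes called in both with the same sign lie around the dotted line, 182 of them in the upper right quadrant, and 4 genes called with opposite signs lie in the other quadrants.

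Genes that separated the lines with and without light were ranked by the smaller of their 2 log2 fold changes, within the same limits on overlap and level. ENSCAFG00000017018 and ENSCAFG00000017855 came first among those higher in bPAC cells. ENSCAFG00000017018 had 47.1, 61.7 and 56.2 CPM in bPAC high light and 1.52 and 1.40 CPM in parental high light (log2 fold change 5.21, SE 0.53, edgeR adjusted p = 5.15e-06). It had 30.1 to 77.8 CPM in bPAC low light and 0.883 to 2.38 CPM in parental low light, and the lowest of all its bPAC libraries, at 20.7 CPM in the dark, was above every parental one. Its line difference at high light exceeded that in the dark by 0.30 on the log2 scale (SE 0.77, edgeR adjusted p = 0.887).

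ENSCAFG00000017855 had 3.43, 5.94 and 6.62 CPM in bPAC high light, or 58 reads, and 1 read in the parental pair. The ratio of the scaled reads was 39.6, with an exact 95% interval of 6.84 to 1591 (edgeR adjusted p = 0.00983). Without either parental high light library this call was lost, with adjusted p up to 0.0778 (edgeR). In the dark it had 1.92, 3.73 and 10.5 CPM in bPAC cells. The mean of 5.38 CPM passed the limit of 5 CPM through bPAC dark 3, the only library of that group above it. The ratio of the scaled reads in the dark was 94.8, with an exact 95% interval of 16.4 to 3804 (edgeR adjusted p = 0.00169). In parental cells the gene had 1 read in the 3 dark libraries and none in the 3 low light libraries, so it was close to undetected in that line at every light level.

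Lower in bPAC cells with and without light were ENSCAFG00000012619, described above, and ENSCAFG00000018999. ENSCAFG00000018999 had 4.41, 4.53 and 5.37 CPM in bPAC high light and 30.9 and 31.2 CPM in parental high light (log2 fold change -2.71, SE 0.26, edgeR adjusted p = 2.85e-06). Its levels were 5.32 to 7.81 CPM in bPAC dark and 35.1 to 40.7 CPM in parental dark, and 4.09 to 6.68 CPM in bPAC low light and 35.9 to 54.0 CPM in parental low light. The gap between the lines was thus 6.56-fold at high light, 5.83-fold in the dark and 8.16-fold at low light.

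Whether the line difference at high light differed from that in the dark was tested with an interaction term. It passed for 43 genes, 0.504% of those tested, and 1185 had an unadjusted p under 0.05. In 9 of them (0.106%) the difference, bPAC over parental, was higher at high light than in the dark, and in 34 (0.399%) it was lower. The low light libraries enter this test only through the shared estimate of the spread. In the line difference at low light, 31 of the 34 lay below 0 with a median of -0.36, and 7 were called lower, where 52.3% of all tested genes lay below 0 and 2.83% were called lower. Of the 9, 7 lay above 0 at low light with a median of 0.48, and 4 were called higher, where 47.7% of all tested genes lay above 0 and 4.17% were called higher.

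The changes with light within each line share libraries with the interaction and are no separate support for it. For the 34 genes the median log2 fold change between high light and dark was -1.78 in bPAC cells and 0.27 in parental cells. For the 9 genes it was 2.06 in bPAC cells and -0.31 in parental cells. Without parental dark 2 the interaction count was 18, and it was 18 without parental high light 2, 20 without parental high light 1, 17 without bPAC high light 1 and 21 without bPAC high light 2. Leaving out parental dark 3, bPAC dark 2 or bPAC dark 3 gave 24, 22 and 27 genes, and leaving out parental dark 1 or bPAC low light 4 gave 80 and 70.

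**Figure D4:**
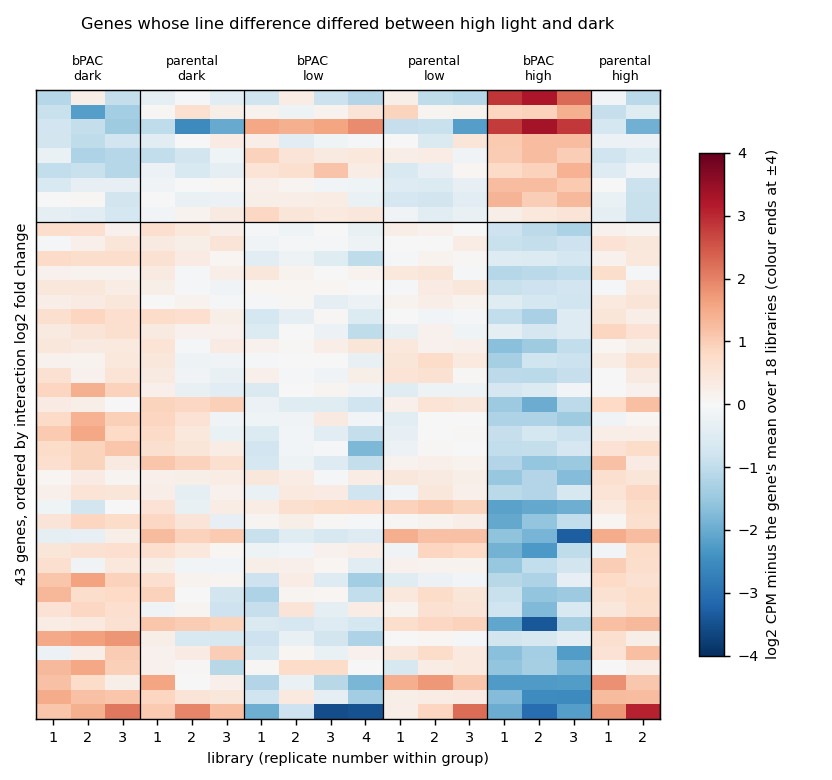
Rows are the 43 genes with an interaction of line and high light, ordered from the largest positive to the largest negative log2 fold change; columns are the 18 libraries by group, and colour is log2 CPM minus the mean of the gene over all libraries. In all 3 bPAC high light columns the 9 upper rows lie above the mean of the gene and the 34 lower rows below it. These columns entered the interaction that chose the genes.

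Of the genes whose line difference was higher at high light, the largest interactions were those of ENSCAFG00000016204 and ENSCAFG00000016285. ENSCAFG00000016204 had 17.0, 22.1 and 11.2 CPM in bPAC high light, against 1.77 and 0.699 CPM in parental high light. Its means in the other groups were 1.27 and 1.55 CPM in bPAC and parental dark and 1.25 and 1.25 CPM in bPAC and parental low light. The interaction was 4.12 on the log2 scale (SE 0.89, edgeR adjusted p = 0.0410). That call was lost on leaving out any parental dark library, bPAC dark 1 or 3, parental low light 2, either parental high light library, or bPAC high light 1 or 2, with adjusted p up to 0.208 (edgeR). The line difference at high light itself was 3.76 (SE 0.63, edgeR adjusted p = 0.000710).

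ENSCAFG00000016285 changed sides. It had 8.99, 9.33 and 13.2 CPM in bPAC high light and 2.28 and 3.26 CPM in parental high light (log2 fold change 1.89, SE 0.42, edgeR adjusted p = 0.00661). Dark levels were 2.34, 0.679 and 1.57 CPM in bPAC cells and 4.83, 7.51 and 5.65 CPM in parental cells (log2 fold change -1.85, SE 0.41, edgeR adjusted p = 0.00937). The lines overlapped at low light, at 4.01 to 6.91 CPM in bPAC and 5.16 to 9.12 CPM in parental cells. The interaction of 3.74 (SE 0.59, edgeR adjusted p = 0.00429) held on leaving out each of the 18 libraries. Without parental high light 1 the call at high light was lost (edgeR adjusted p = 0.0712), and without bPAC dark 2 the call in the dark (edgeR adjusted p = 0.0600).

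On the other side, the largest interactions were those of ENSCAFG00000001254, whose values are given above, and ENSCAFG00000030354. The interaction of ENSCAFG00000001254 was -5.25 (SE 1.02, edgeR adjusted p = 0.0339). It was lost on leaving out any dark library, any bPAC high light library, parental high light 2 or bPAC low light 1, with adjusted p up to 0.153 (edgeR). ENSCAFG00000030354 had 1.80, 0.849 and 0.827 CPM in bPAC high light and 17.5 and 17.0 CPM in parental high light. Dark levels were 20.2, 16.3 and 15.5 CPM in bPAC cells and 12.9, 10.2 and 9.72 CPM in parental cells. From dark through low to high light its mean was 17.3, 5.18 and 1.16 CPM in bPAC cells and 10.9, 8.59 and 17.2 CPM in parental cells. Its interaction was -4.38 (SE 0.57, edgeR adjusted p = 0.00126) and held on leaving out each of the 18 libraries.

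With ENSCAFG00000016285, 4 genes were called in opposite directions at high light and in the dark, and they are named because they are few, after their values were seen. ENSCAFG00000018583, the most abundant of them, had 1020, 1154 and 1224 CPM in bPAC high light and 652 and 459 CPM in parental high light (log2 fold change 1.03, SE 0.21, edgeR adjusted p = 0.00307). In the dark it had 649, 623 and 533 CPM in bPAC cells and 790, 956.5 and 1107 CPM in parental cells (log2 fold change -0.66, SE 0.18, edgeR adjusted p = 0.0320). Its call at high light was lost without parental high light 2 (edgeR adjusted p = 0.0903). The dark call was lost without parental dark 2 or 3, any bPAC dark library or parental low light 3, with adjusted p up to 0.201 (edgeR).

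ENSCAFG00000001225 had 7.03, 8.49 and 5.79 CPM in bPAC high light and 22.0 and 26.1 CPM in parental high light (log2 fold change -1.74, SE 0.39, edgeR adjusted p = 0.00609). In the dark it had 54.3, 64.5 and 42.5 CPM in bPAC cells and 24.8, 22.5 and 9.94 CPM in parental cells (log2 fold change 1.48, SE 0.33, edgeR adjusted p = 0.0102). Both parental high light libraries lay near parental dark 1 and 2, with parental dark 3 below them, while the bPAC levels at high light lay below every bPAC dark library. Without parental high light 2 the call at high light was lost (edgeR adjusted p = 0.0698), and the dark call without parental dark 3 or bPAC dark 2 (edgeR adjusted p up to 0.0540).

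ENSCAFG00000006638 had 14.4, 15.3 and 18.6 CPM in bPAC high light and 37.7 and 28.2 CPM in parental high light (log2 fold change -1.04, SE 0.29, edgeR adjusted p = 0.0230). In the dark it had 70.2, 75.4 and 82.1 CPM in bPAC cells and 28.6, 15.6 and 15.4 CPM in parental cells (log2 fold change 1.91, SE 0.26, edgeR adjusted p = 0.000125). At low light the bPAC libraries, at 10.1 to 19.4 CPM, were below the parental ones, at 22.9 to 25.4 CPM, but the difference did not pass the threshold (log2 fold change -0.76, SE 0.24, edgeR adjusted p = 0.0661). The call at high light was lost without either parental high light library, bPAC high light 1 or bPAC high light 2, with adjusted p up to 0.164 (edgeR).

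Of the 34 genes with a lower line difference at high light, 33 were themselves called lower in bPAC cells at high light, against 5.63% of all tested genes. The interaction includes the line difference at high light, so this was largely set by the choice. The gene of the 34 that was not called there, named after its values were seen, was ENSCAFG00000030217. It had 14.4, 15.8 and 21.5 CPM in bPAC high light and 23.5 and 26.5 CPM in parental high light (log2 fold change -0.56, SE 0.28, edgeR adjusted p = 0.198). In the dark it was higher in bPAC cells, at 43.0, 63.1 and 44.6 CPM against 26.8, 18.8 and 17.0 CPM (log2 fold change 1.25, SE 0.24, edgeR adjusted p = 0.00357). Its interaction of -1.81 (SE 0.36, edgeR adjusted p = 0.0300) was lost without parental dark 2 or 3, bPAC dark 2, either parental high light library, or bPAC high light 1 or 2, with adjusted p up to 0.131 (edgeR).

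**Figure D5:**
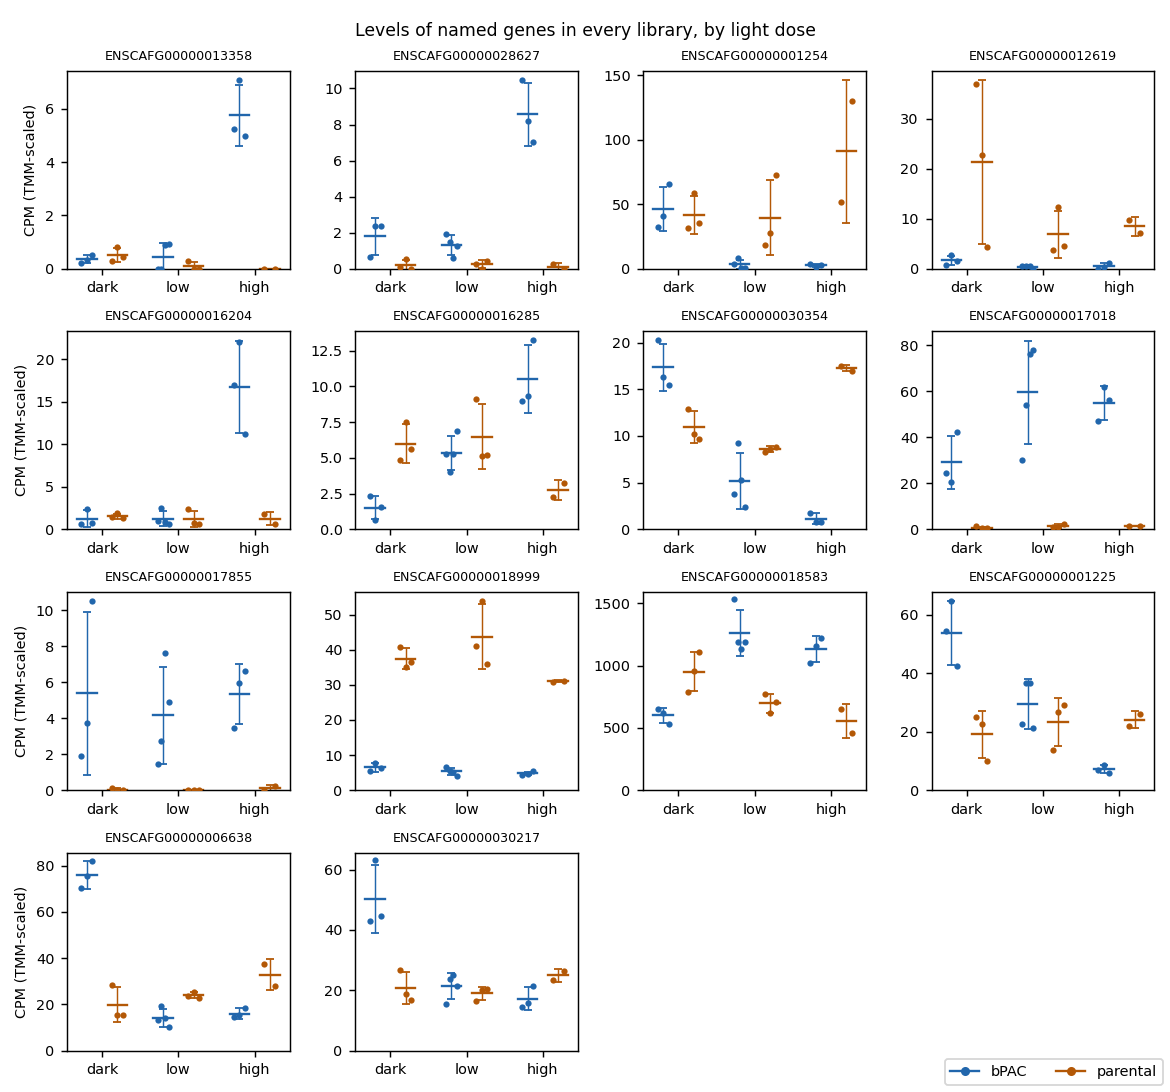
Levels in CPM after TMM scaling of the 14 named genes in all 18 libraries, in the dark, at low and at high light, with bPAC cells (blue) left of parental cells (orange); points are libraries, horizontal lines means and bars 1 SD. ENSCAFG00000017018 and ENSCAFG00000018999 separate the lines at each light level, ENSCAFG00000016204 and ENSCAFG00000013358 stand up in bPAC high light, and ENSCAFG00000016285 and ENSCAFG00000018583 are lower in bPAC cells in the dark and higher at high light.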

How the data were processed

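For each library the authors deposited raw read counts of 32220 gene IDs, as whole numbers. Another 5 rows count reads without a gene, and stayed out of library sizes and tests. Per the labels' protocols, the SPLIT kit of Lexogen gave the RNA and its QuantSeq 3' FWD kit the libraries. Per the submitters' processing notes, CanFam3.1 was the genome build. Which aligner, counting program and annotation were used is not given in the sources used. Reads assigned to genes made up 29.4% to 33.9% of a table, and reads outside genes 25.1% to 29.6%. Gene reads ranged from 2638511 to 9610144 per library, which sets the precision for low genes. High light replicates differed from each other by more than sampling noise, with 13.4 to 28.8 for chi-square over its degrees of freedom.

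All 18 libraries entered 1 model of 6 groups taken from the labels, so that small groups share the estimate of the spread. Genes were filtered with filterByExpr (minimum count 10), scaled by TMM and tested with edgeR 4.0.16 (R 4.3.3; glmQLFit, robust, then glmQLFTest); p-values were adjusted by Benjamini-Hochberg over the 8530 genes and read at 0.05. An SE was derived from the fold change and its F statistic. The tests were also run on simulated counts with known fold changes set in bPAC high light only. Those counts held no line difference in the dark, and their outcome is not given here. Alternatives were DESeq2 1.42.0 (size factors, and its test), limma-voom (limma 3.58.1), no filter on low counts, a minimum mean of 5 CPM, fits of just the compared groups, a surrogate variable (sva 3.50.0), thinning to equal depth, and leaving out each library.

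The comparison, the tests and the rule for named genes were chosen with earlier results of these data known. Named genes are the 2 per direction with the largest fold change among called genes that reach 5 CPM on average in the higher group, without overlap of the libraries (not required for the interaction), and for genes called in both high light and dark the 2 with the largest smaller difference. Because no ID matched a symbol, 8 lists of 135 pathway genes and the cell type markers were not used.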

Additional observations from a re-analysis of the deposited data

Results flagged for a closer look

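For 8 named genes the line difference at high light differed from that in the dark by a test of the difference itself (edgeR adjusted p from 0.00126 to 0.0410). All 8 were named for this interaction or for opposite calls at high light and in the dark. Their passing was thus set or favoured by the choice and is no separate result. The interaction was 4.12 for ENSCAFG00000016204, 3.74 for ENSCAFG00000016285 and 1.69 for ENSCAFG00000018583 on the log2 scale. It was -5.25 for ENSCAFG00000001254, -4.38 for ENSCAFG00000030354, -3.22 for ENSCAFG00000001225, -2.96 for ENSCAFG00000006638 and -1.81 for ENSCAFG00000030217. In bPAC low light, the 1 group of 4 libraries, ENSCAFG00000016204 stood at 2.54 CPM in library 2 and at 0.629 to 0.954 CPM in the others, and ENSCAFG00000018583 at 1536 CPM in library 1 and at 1130 to 1190 CPM in the others. Chance flags about 1 in 20 groups in this way, and 14 genes were looked at.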

How the results depend on the processing

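The number of genes called between the lines at high light lay between 696 and 1232 under the settings that kept all libraries, and between 295 (without parental high light 2) and 1213 (without bPAC low light 4) on leaving out 1 library. The 1232 came with no filter on low counts, where 42.5% of the calls were higher in bPAC cells, against 53.9% as reported. For the dark the range on leaving out 1 library was 224 to 736 (864 with no filter on low counts), for low light 298 to 642, and for the interaction 17 to 80. With only the compared groups in the fit, high light gave 733 calls, and 634 of them were among the 1041. Of the 733 calls, 46.4% were higher in bPAC cells. Low light gave 361 calls with only its own groups in the fit. The interaction gave 85 calls with the DESeq2 test and 329 with no filter on low counts, where 16648 genes were tested. With 1 surrogate variable the calls at high light were 1025, of which 894 were among the 1041. Under every setting that tested them, the named genes kept their sign. Most were chosen for libraries that do not overlap, so on leaving out a library this was largely fixed by the choice. Apart from leaving out a library, the surrogate variable ended the interactions of ENSCAFG00000001254 (adjusted p = 0.0856) and ENSCAFG00000016204 (adjusted p = 0.0509). Thinning to equal depth ended the interactions of ENSCAFG00000016204 (adjusted p = 0.114) and ENSCAFG00000030217 (adjusted p = 0.0610) and the call of ENSCAFG00000006638 at high light (adjusted p = 0.0578). In the dark, ENSCAFG00000012619 was not called with only the groups compared (adjusted p = 0.0568) nor ENSCAFG00000018583 without a filter (adjusted p = 0.0569). The cause was not tested. No paired analysis was possible because the labels carry no replicate numbers. Differences in genes of few reads are limited by depth, the smallest high light library holding 2638511 gene reads.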
